A study of Homo sapiens with 4 samples.

Results

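The 6 genes described here encode proteins that bind AU-rich elements of messenger RNA: ELAVL1, TIA1, TIAL1, ZFP36L1, ZFP36L2 and KHSRP. They were chosen by name, and their 3′ ends were taken from 1 window per gene on the minus strand of hg19, out of 18158 loci with a measured 3′ end site in the series. The windows were chr19:8022500-8071000 for ELAVL1, chr2:70436000-70476000 for TIA1, chr10:121332000-121357000 for TIAL1, chr14:69254000-69263500 for ZFP36L1, chr2:43449000-43454000 for ZFP36L2 and chr19:6412500-6425000 for KHSRP. No hg19 gene annotation was used, so exons, introns and untranslated regions were not assigned. As a check of the names, all 6 windows lay on the chromosome that RefSeq on GRCh38.p14 gives for the gene and matched its span within 2000 nt, and the strand matched for the 4 genes whose strand was listed.

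AU-rich elements are short stretches of A and U in 3′ untranslated regions that set how long an mRNA lasts and how well it is translated. ELAVL1, also called HuR, mostly stabilises the mRNAs it binds. TIA1 and TIAL1 repress translation and gather in stress granules, while ZFP36L1, ZFP36L2 and KHSRP lead bound mRNAs to deadenylation and decay. The choice of poly(A) site sets how much of the 3′ untranslated region an mRNA carries, and with it which elements it holds.

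The data were A-seq libraries, which count the 3′ ends of polyadenylated RNA, from HEK293 cells, an established line derived from human embryonic kidney. One library each came from untreated cells (no siRNA) and cells given a scrambled control siRNA, the siRNA for CstF-64 (gene CSTF2) or that for CF Im 68 (gene CPSF6). Cells given siRNA were collected 3 days later, and the last groups are called depleted by their label, since protein levels were not analysed here. CF Im 68 belongs to the cleavage factor that recognises UGUA elements upstream of poly(A) sites, and CstF-64 is the subunit of the cleavage stimulation factor that binds U- and GU-rich RNA downstream of the cleavage position. The question was how either factor affects which poly(A) site is used. The RNA was taken from whole cultures, in which fewer cells and less RNA per cell cannot be told apart.

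Each depletion used 1 double-stranded RNA, and its strand as labelled is shown because every contrast of that depletion rests on it (n marks a base that the label does not specify):
CstF-64 siRNA: nnccugaaugggcgcgaauuc
CF Im 68 siRNA: nngaccgagauuacauggaua

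The libraries held 7343112 to 15806975 reads, with CstF-64 siRNA the shallowest. Each group was 1 library, so differences between cultures could not be measured, each test compares 2 libraries and not conditions, and the 2 control libraries were set against each other as a background. All intervals are 95% intervals for counting error only, and exact unless stated otherwise. They are Clopper-Pearson for shares and Poisson for reads per 1000000 library reads (RPM). The targeted genes were read first, as a check of the labels. CPSF6 had 164 RPM in untreated cells, 186 RPM after control siRNA, 180 RPM with CstF-64 depleted and 134 RPM with CF Im 68 depleted. CSTF2 had 36.8, 23.7 and 34.2 RPM in untreated cells, after control siRNA and with CF Im 68 depleted. With CstF-64 depleted it had 17.0 RPM, of which 82 of 125 reads lay in 1 cluster seen in no other library, and 5.86 RPM without that cluster. Each targeted gene was thus lowest in its own library. On the opposite strand, the CSTF2 window held 52 reads in the CstF-64 library and 0 to 4 in the others, and the CPSF6 window 40 reads in the CF Im 68 library and 2 to 6 in the others. Whether these reads and the CSTF2 cluster came from the siRNA was not tested. The windows of both genes were set from general knowledge of their positions and matched RefSeq in chromosome, strand and span.

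The 6 windows held 24 sites, each a cluster of 3′ end positions within 25 nt of its most used position and with a mean of at least 1 RPM over the 4 libraries. ELAVL1 had 5 sites, TIA1 7, TIAL1 5, KHSRP 4, ZFP36L2 2 and ZFP36L1 1. Of these, 14 held at least 5% of the site reads of their gene and are called main sites, and the weaker 10 ranged from 0.545 to 5.69 RPM in single libraries. The threshold fell between the TIA1 site at 70437789, with 5.06%, and the TIA1 site at 70439029, with 4.68%. Over all 6 windows, 6323 reads were counted in untreated cells, 6009 after control siRNA, 2814 with CstF-64 depleted and 6434 with CF Im 68 depleted.

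**Figure D1:**
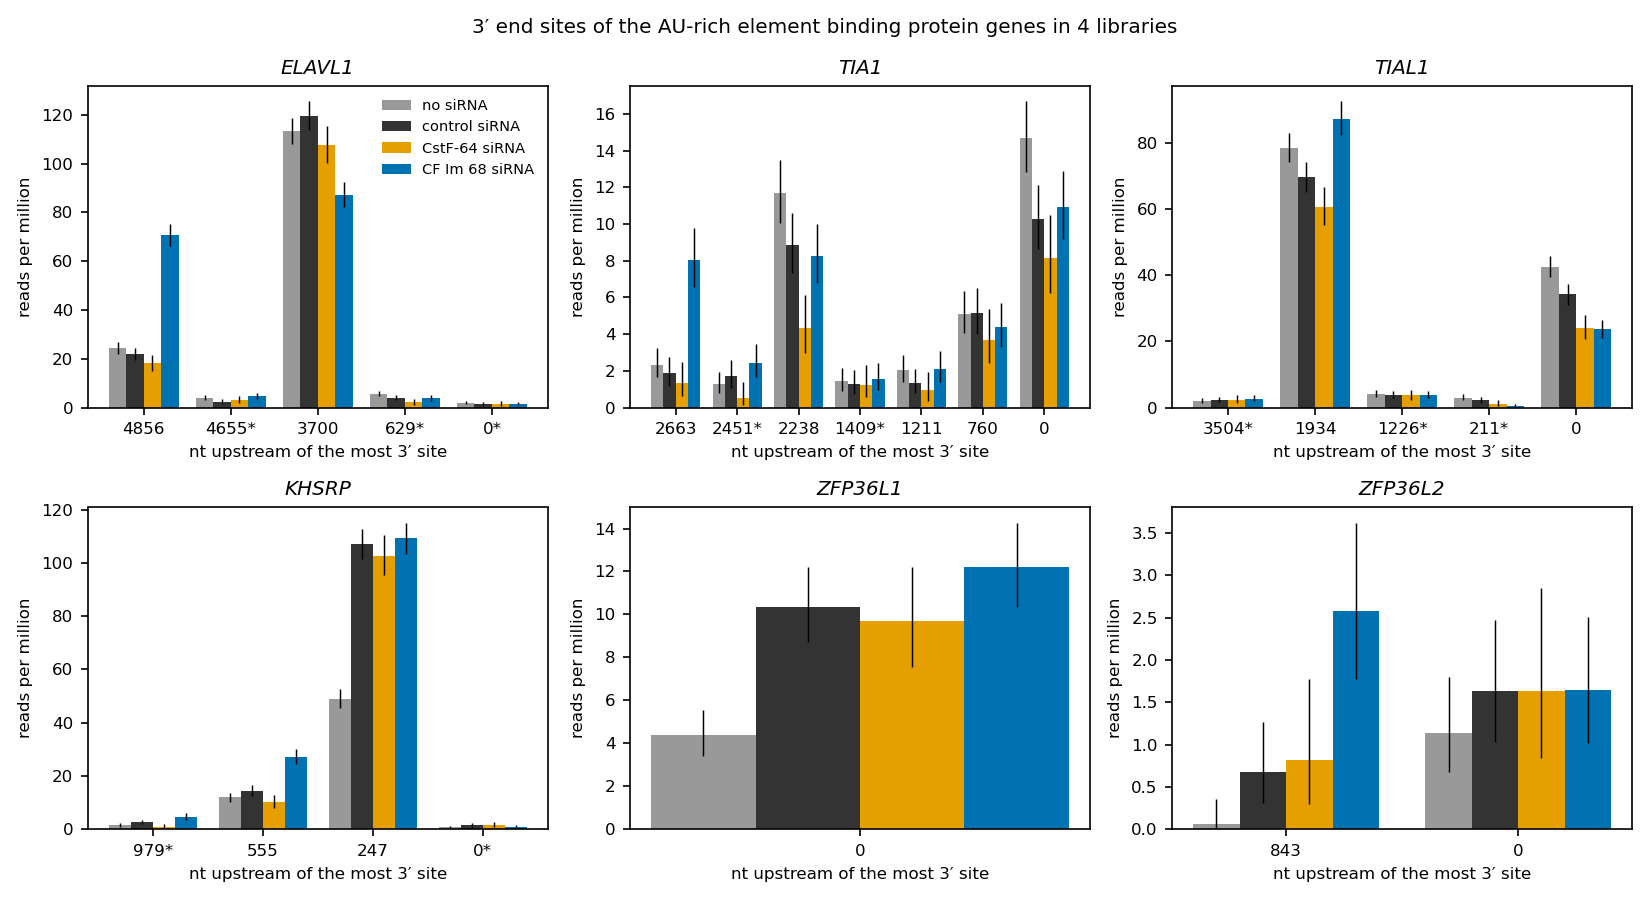
RPM (y axis) at each 3′ end site of the 6 genes, with sites ordered from 5′ to 3′ by their distance in nt upstream of the most 3′ site (x axis, asterisk for sites under 5% of the gene's site reads); bars are the 4 libraries and lines are exact Poisson 95% intervals. The most 5′ main site of ELAVL1 stands at 70.6 RPM with CF Im 68 depleted and between 18.1 and 24.4 RPM in the other libraries.

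Of the 4 genes that could be tested for site choice, ELAVL1 had the largest change in site share with CF Im 68 depleted. Its mRNA ended mainly at 2 sites on chromosome 19, a proximal one at 8028315 and a distal one at 8027159, 1156 nt further 3′. The proximal site had 24.4 RPM in untreated cells, 21.9 RPM after control siRNA, 18.1 RPM with CstF-64 depleted and 70.6 RPM with CF Im 68 depleted. The distal site had 113 RPM, 120 RPM, 108 RPM and 87.3 RPM in the same order. With CF Im 68 depleted the proximal site was thus the highest and the distal site the lowest of the 4 libraries.

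The proximal share is the percentage of reads of a gene's 2 most used sites that lie at the one nearer the 5′ side. For ELAVL1 it was 17.7% in untreated cells (16.1 to 19.4, 2178 reads), 15.5% after control siRNA (13.9 to 17.2, 1902 reads) and 14.4% with CstF-64 depleted (12.2 to 16.8, 923 reads). With CF Im 68 depleted it was 44.7% (42.5 to 46.9, 2020 reads), an interval clear of the other libraries. A locus was called moved when a two-sided Fisher's exact test against control siRNA, with Benjamini-Hochberg adjustment over all 4792 tested loci, gave an adjusted p below 0.05 and the share differed from both control libraries by at least 10 percentage points in the same direction. ELAVL1 moved to the proximal site with CF Im 68 depleted, by 29.2 points over control siRNA (adjusted p = 1.87e-88) and by 27.0 points over no siRNA. This was larger than the change of 94.0% of tested loci. With CstF-64 depleted the difference from control siRNA was −1.10 points (adjusted p = 0.667) and the gene was not called. The direct comparison of the depletions gave 30.3 points more proximal use with CF Im 68 depleted (adjusted p = 3.51e-60), and control siRNA minus no siRNA was −2.21 points (adjusted p = 0.126).

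The weaker ELAVL1 sites included the most 3′ one, at 8023459, 4856 nt beyond the proximal site. It had 31 reads in untreated cells, 19 after control siRNA, 12 with CstF-64 depleted and 19 with CF Im 68 depleted. The longest ends of ELAVL1 were therefore rare in all 4 libraries. The site at 8024088 had 5.69, 4.02, 2.18 and 3.83 RPM in the same order, and the site at 8028114, 201 nt from the proximal one, had 3.92, 2.38, 3.13 and 4.77 RPM.

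Within the ELAVL1 sites the cleavage position was spread over 36 nt at the proximal and 13 nt at the distal site. At the distal site, 64.7% of reads ended at the top position in untreated cells (62.4 to 66.9), 73.0% after control siRNA (70.8 to 75.2), 83.4% with CstF-64 depleted (80.6 to 85.9) and 81.1% with CF Im 68 depleted (78.7 to 83.4). At the proximal site the percentages were 43.0%, 46.8%, 65.4% and 56.7%. At either site both depleted libraries had a larger percentage of reads at the top position than both control libraries, and the controls differed from each other at the distal site. The same order was seen at the TIA1 sites at 70438816 and 70437338 and the distal ZFP36L2 site, but at no other main site of the set. There the intervals of the depleted and control libraries overlapped, and the differences were not tested. At the distal TIAL1 site the percentages were 89.2%, 85.4%, 84.2% and 82.5%, lower in both depleted libraries. Both depleted libraries were also below both controls at the TIA1 site at 70439241 and at the ZFP36L1 site. At these sites too the intervals of the depleted and control libraries overlapped, and the differences were not tested. How many loci of the series showed either pattern was not counted.

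**Figure D2:**
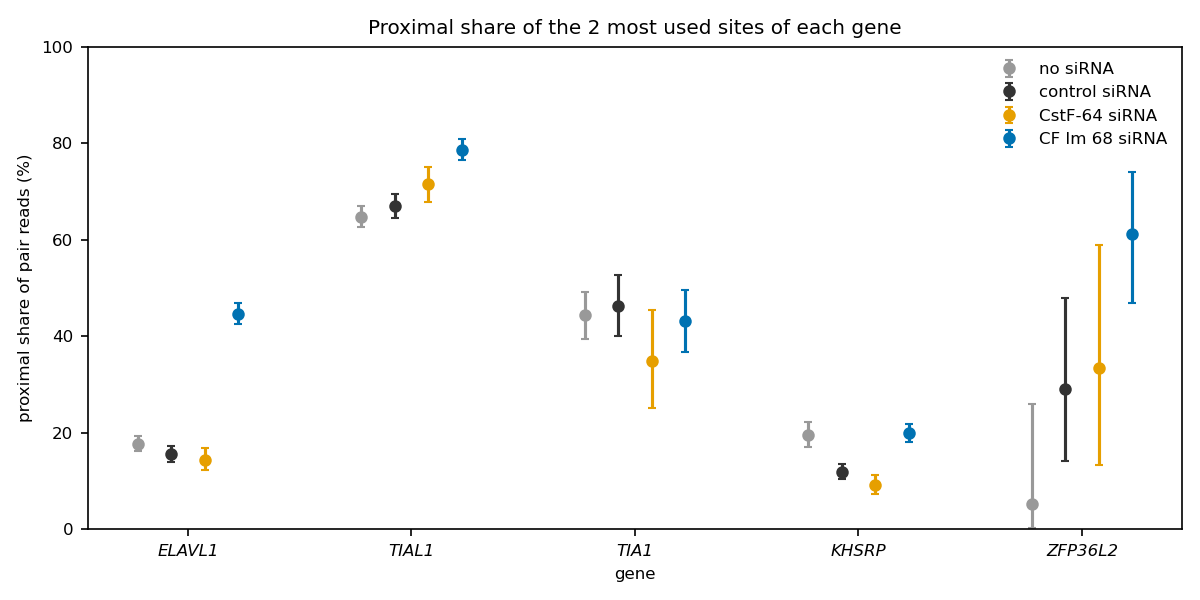
Proximal share of pair reads in percent (y axis) for the 5 genes with at least 2 main sites (x axis); points are the 4 libraries and lines exact Clopper-Pearson 95% intervals. The ELAVL1 point with CF Im 68 depleted, at 44.7%, lies clear of the other libraries, while the ZFP36L2 intervals are wide because its pair held 18 to 54 reads. The proximal ZFP36L2 site reached the minimum mean of 1 RPM only through the CF Im 68 library.

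TIA1 and TIAL1 are paralogues with similar RNA-binding domains, and both carried several sites. The TIAL1 pair lay on chromosome 10 at 121334914 (proximal) and 121332980 (distal), 1934 nt apart. The proximal site had 78.5 RPM in untreated cells, 69.6 RPM after control siRNA, 60.7 RPM with CstF-64 depleted and 87.3 RPM with CF Im 68 depleted. The distal site had 42.6, 34.2, 24.1 and 23.6 RPM in the same order, so that it was low after either depletion.

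The proximal share of TIAL1 was already over that of the other genes in the controls. It was 64.8% in untreated cells (62.7 to 67.0), 67.0% after control siRNA (64.5 to 69.5), 71.6% with CstF-64 depleted (67.9 to 75.1) and 78.7% with CF Im 68 depleted (76.5 to 80.8). TIAL1 moved to the proximal site with CF Im 68 depleted, by 11.7 points over control siRNA (Fisher's exact test, adjusted p = 2.02e-11) and 13.9 points over no siRNA. The change exceeded that of 72.4% of tested loci and was close to the 10-point limit. With CstF-64 depleted the share differed by 4.54 points from control siRNA (adjusted p = 0.126) and by 6.75 points from no siRNA (adjusted p = 0.00577), which did not meet the rule. The 2 depletions differed by 7.13 points (adjusted p = 0.00196), also under the limit of 10 points.

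Of the weaker TIAL1 sites, the one at 121333191, 211 nt upstream of the distal site, had 3.04 RPM in untreated cells, 2.16 RPM after control siRNA, 1.09 RPM with CstF-64 depleted and 0.547 RPM (7 reads) with CF Im 68 depleted. Like the distal site, it was lower after either depletion than in both controls. The other weak sites, at 121336484 and 121334206, held 17 to 34 and 27 to 65 reads per library.

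TIA1 used more sites than any other gene of the set, with 5 main sites within 2663 nt on chromosome 2. From 5′ to 3′ these lay at 70439241, 70438816, 70437789, 70437338 and 70436578. In the control siRNA library they took 6.78%, 32.2%, 4.88%, 18.7% and 37.4% of the 369 main-site reads, so no site held the larger part.

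The 2 most used TIA1 sites, at 70438816 and 70436578, did not meet the rule. The proximal share of this pair was 44.4% in untreated cells, 46.3% after control siRNA, 34.8% with CstF-64 depleted (25.1 to 45.4, 92 reads) and 43.1% with CF Im 68 depleted. The change was −3.21 points with CF Im 68 depleted (adjusted p = 0.573) and −11.5 points with CstF-64 depleted (adjusted p = 0.173). At 92 reads, a change of the latter size could not be told from counting error.

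The most 5′ TIA1 site was outside that pair, and it behaved differently. It had 2.34 RPM in untreated cells (37 reads), 1.86 RPM after control siRNA (25 reads), 1.36 RPM with CstF-64 depleted (10 reads) and 8.05 RPM with CF Im 68 depleted (103 reads). Its share of main-site reads was 6.53% (4.64 to 8.88), 6.78% (4.43 to 9.84), 7.35% (3.58 to 13.1) and 23.8% (19.9 to 28.1). To test it, every main site was set against the other main sites of its locus with the same thresholds, adjusted over 13815 sites, a test added after the values were seen. The share of this site rose with CF Im 68 depleted by 17.1 points over control siRNA (Fisher's exact test, adjusted p = 1.3e-10) and by 17.3 points over no siRNA, and no other TIA1 site met the rule. Over all sites tested in this way, 12.2% rose and 11.2% fell with CF Im 68 depleted, and 4.5% rose and 4.52% fell with CstF-64 depleted, where 0 member sites met the rule.

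KHSRP is a KH-domain protein that brings deadenylases and the exosome to AU-rich mRNAs. Its main sites lay on chromosome 19 at 6413669 (proximal) and 6413361 (distal), 308 nt apart, which is the shortest distance among the tested genes of the set. The proximal site had 11.9 RPM in untreated cells, 14.4 RPM after control siRNA, 10.2 RPM with CstF-64 depleted and 27.1 RPM with CF Im 68 depleted. The distal site had 48.9, 107, 103 and 109 RPM, so that the no siRNA library stood apart from the others.

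The control libraries disagreed on the KHSRP share. It was 19.6% in untreated cells (17.1 to 22.2), 11.8% after control siRNA (10.3 to 13.5), 9.05% with CstF-64 depleted (7.18 to 11.2) and 19.9% with CF Im 68 depleted (18.1 to 21.9). The difference between the controls was −7.74 points (Fisher's exact test, adjusted p = 1.03e-06). Against control siRNA the CF Im 68 library differed by 8.08 points (adjusted p = 7.87e-10), and against no siRNA by 0.345 points (adjusted p = 0.881). KHSRP was not called. The direct comparison of the depletions, which uses no control library, gave 10.9 points more proximal use with CF Im 68 depleted (adjusted p = 6.3e-12). By that comparison (adjusted p below 0.05 and at least 10 points), the proximal share was larger in the CF Im 68 library at 24.9% of tested loci, ELAVL1 and KHSRP among them, and smaller at 5.07%.

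ZFP36L1 and ZFP36L2 are zinc finger proteins of the tristetraprolin family, which recruit the CCR4-NOT deadenylase. ZFP36L1 had a single site, at 69254385 on chromosome 14, so that site choice could not be compared. It had 4.37 RPM in untreated cells, 10.3 RPM after control siRNA, 9.67 RPM with CstF-64 depleted and 12.2 RPM with CF Im 68 depleted, again with the no siRNA library low. Its reads were spread over 14 positions, with 42.3 to 52.5% at the top one.

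ZFP36L2 was the least measured gene, with 2 sites on chromosome 2, at 43450385 (proximal) and 43449542 (distal), 843 nt apart. The proximal site had 1 read in untreated cells, 9 after control siRNA, 6 with CstF-64 depleted and 33 with CF Im 68 depleted. The distal site had 18, 22, 12 and 21 reads. The proximal share was 5.26% (0.133 to 26.0), 29.0% (14.2 to 48.0), 33.3% (13.3 to 59.0) and 61.1% (46.9 to 74.1). In RPM the proximal site had 0.0633, 0.669, 0.817 and 2.58 in the same order. It therefore reached the minimum mean of 1 RPM only through the CF Im 68 library. Its high share there cannot be read apart from how sites were chosen. With under 50 pair reads in 3 libraries the gene was not tested. The interval with CF Im 68 depleted overlapped those after control and CstF-64 siRNA, which does not by itself show that the shares were alike.

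Of the 6 genes, 4 could be tested for site choice, and with CF Im 68 depleted 2 of them (ELAVL1 and TIAL1) moved proximally and 0 distally. Of all tested loci, 24.2% moved proximally and 2.63% distally. With 4 genes the count cannot be set apart from that background. The median change of the 4 genes was 9.88 points over control siRNA, against 4.84 points over all loci. With CstF-64 depleted 0 of the 4 moved in either direction, against 8.22% of loci that moved proximally and 3.59% distally. TIA1 came nearest, at −11.5 points from control siRNA and −9.58 points from no siRNA. The median changes were −1.94 points for the 4 genes and 1.04 points over all loci. Between the control libraries, 10.6% of loci had a larger and 11.1% a smaller share after control siRNA by the same test and a 10-point limit, and 0 of the 4 genes passed it. Each depletion was compared with the same 2 control libraries.

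**Figure D3:**
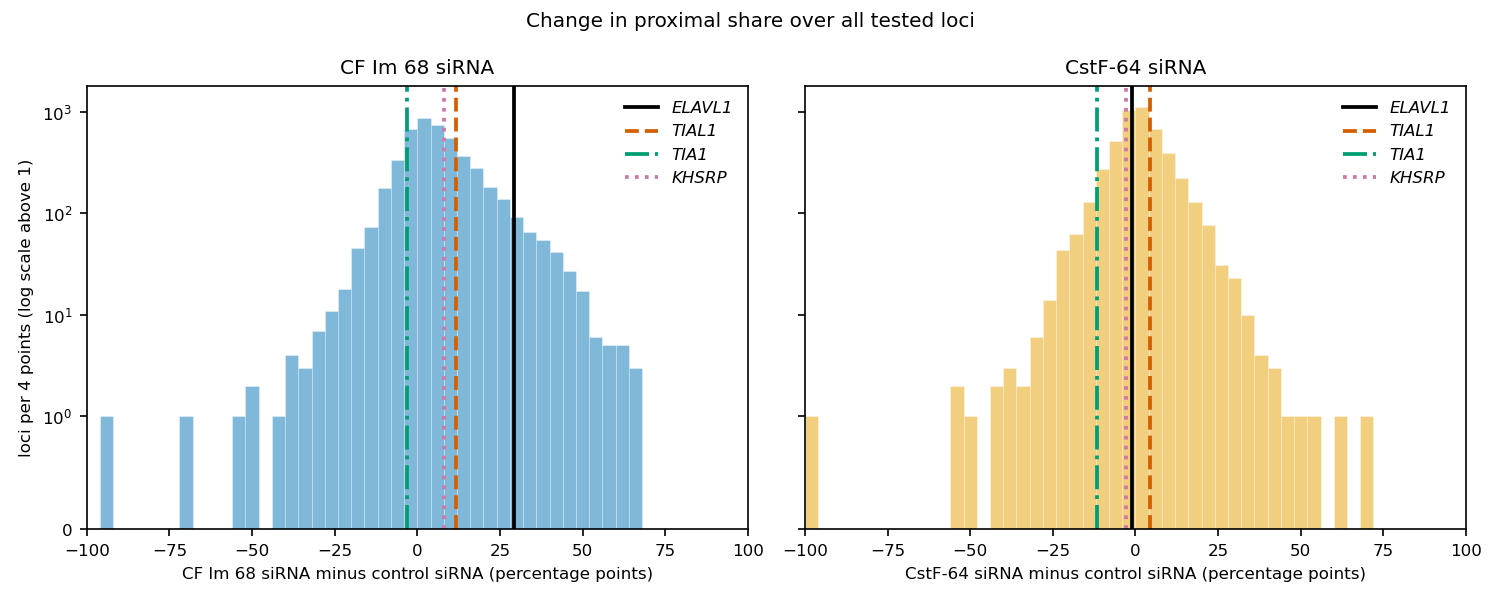
Number of loci (y axis, log scale above 1) by the change in proximal share over control siRNA in percentage points (x axis), for CF Im 68 siRNA (left) and CstF-64 siRNA (right), with lines at 4 genes. ELAVL1 lies at 29.2 points in the left panel and at −1.10 points in the right one.

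The mean end distance of a gene is the read-weighted mean distance of its main sites from the most 5′ one, and summarises all main sites. For ELAVL1 it was 951 nt in untreated cells, 977 nt after control siRNA, 989 nt with CstF-64 depleted and 639 nt with CF Im 68 depleted. For TIA1 it was 1582, 1560, 1727 and 1305 nt in the same order. For TIAL1 it was 680, 637, 549 and 412 nt. These 3 genes had their shortest ends with CF Im 68 depleted, below both controls by at least 200 nt, with differences from control siRNA of −337, −255 and −226 nt. Over 4983 loci, 25.3% were shorter by as much and 4.98% longer, and the median difference from control siRNA was −56.8 nt. KHSRP, with its sites 308 nt apart, had 248, 272, 280 and 247 nt. ELAVL1, TIAL1 and KHSRP have 2 main sites each, so their mean end distance restates the proximal share and is no separate result. The 200 nt limit is also harder to reach where sites lie close together.

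With CstF-64 depleted the differences had both signs. TIA1 had a mean end distance 168 nt longer than after control siRNA and 145 nt longer than in untreated cells. For TIAL1 the differences were −87.8 and −131 nt, and for ELAVL1 12.7 and 38.3 nt. None reached 200 nt against both controls, which 11.5% of loci did in the shorter and 6.42% in the longer direction. The control libraries differed by 25.6 nt for ELAVL1, −22.4 nt for TIA1, −42.8 nt for TIAL1 and 23.8 nt for KHSRP (control siRNA minus no siRNA).

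**Figure D4:**
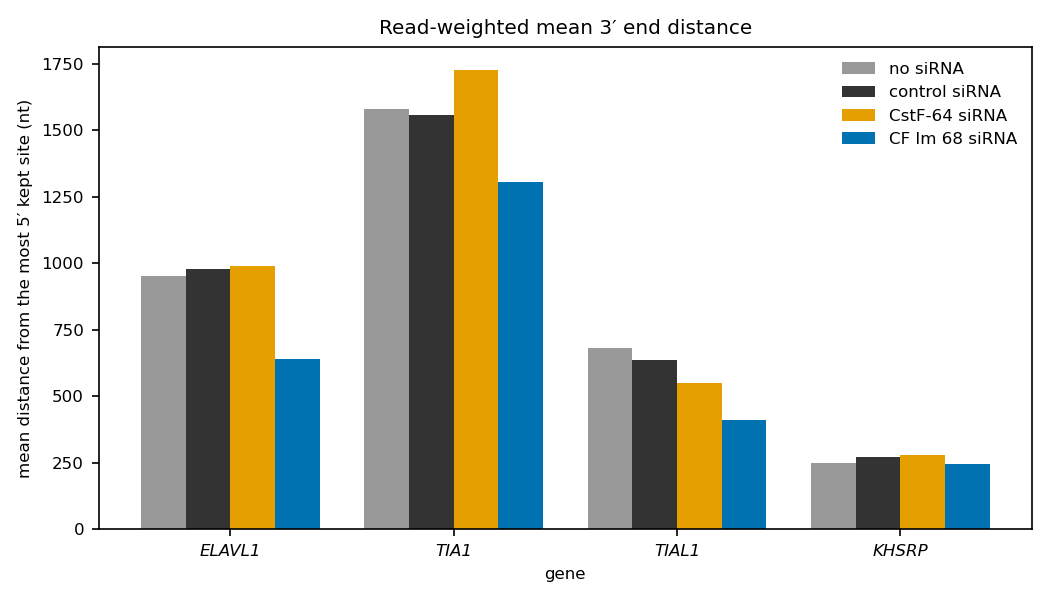
Read-weighted mean distance of the main sites from the most 5′ main site in nt (y axis) for the 4 genes with at least 50 reads per library at 2 or more main sites (x axis); bars are the 4 libraries, with no error shown. ELAVL1 stands at 977 nt after control siRNA and 639 nt with CF Im 68 depleted, and the TIA1 bar is highest with CstF-64 depleted, at 1727 nt. That TIA1 bar differs from the one after control siRNA by less than the counting error of the difference.

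Totals per gene were counted as all reads of the window on the gene's strand. A-seq counts 1 end per molecule, so RPM can be compared between genes without a correction for length. ELAVL1 had 151 RPM in untreated cells (145 to 158) and 151 RPM after control siRNA (145 to 158), 133 RPM with CstF-64 depleted (125 to 142) and 171 RPM with CF Im 68 depleted, 1.13 times the control siRNA level (1.06 to 1.20). TIAL1 had 134, 117, 94.4 and 123 RPM in the same order, and TIA1 had 41.9, 34.3, 22.9 and 42.5 RPM. KHSRP had 65.0, 128, 118 and 145 RPM. ZFP36L1 had 5.95, 13.9, 11.2 and 15.2 RPM and ZFP36L2 had 2.21, 2.98, 3.27 and 6.96 RPM.

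In the control siRNA library the order was ELAVL1, KHSRP, TIAL1, TIA1, ZFP36L1 and ZFP36L2. The intervals of KHSRP (122 to 134 RPM) and TIAL1 (111 to 123 RPM) overlapped there, and the difference between these genes was not tested. In untreated cells, KHSRP was below TIAL1, at 65.0 RPM against 134 RPM. KHSRP and ZFP36L1 thus separated the no siRNA library from the 3 siRNA libraries, with ratios of control siRNA to no siRNA of 1.97 (1.82 to 2.13) and 2.34 (1.82 to 3.03). Between these 2 libraries the total differed at least 2-fold on the log2 scale with 1 RPM added at 5.2% of loci in favour of control siRNA, ZFP36L1 among them, and at 1.95% in the other direction.

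**Figure D5:**
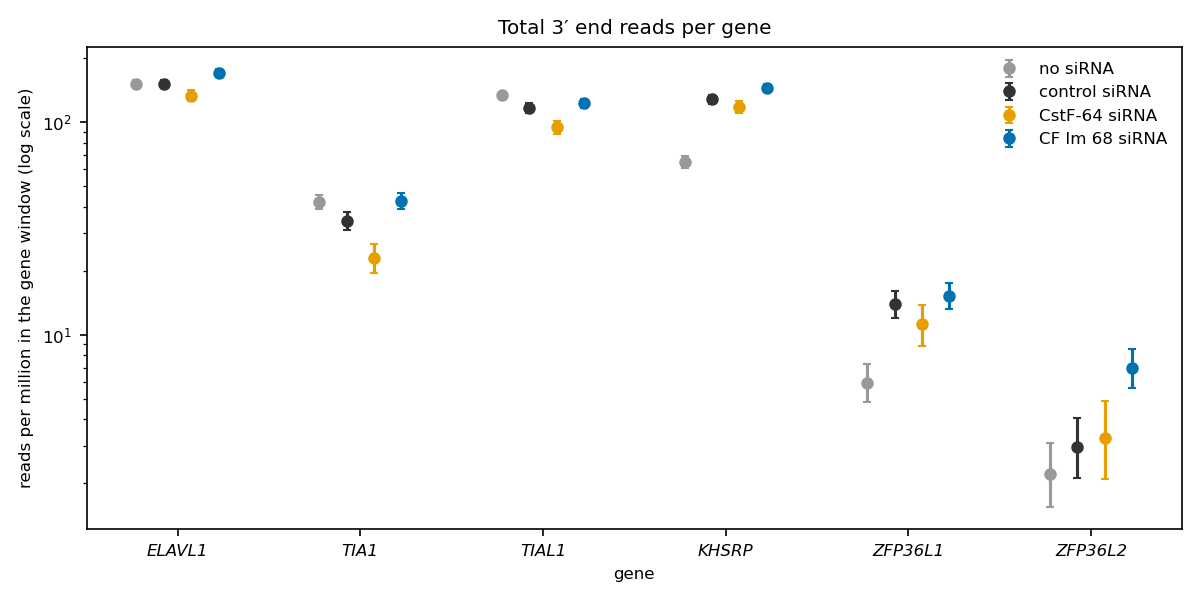
Total 3′ end RPM in each gene window (y axis, log scale) for the 6 genes (x axis); points are the 4 libraries and lines exact Poisson 95% intervals. KHSRP and ZFP36L1 are lowest in untreated cells, at 65.0 and 5.95 RPM, and ZFP36L2 is highest with CF Im 68 depleted, at 6.96 RPM.

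A total was called changed when it differed at least 2-fold from both controls on the log2 scale with 1 RPM added. With CF Im 68 depleted 1 of the 6 genes, ZFP36L2, was higher and 0 were lower, while 5.03% of 17880 loci were higher and 1.86% lower. ZFP36L2 had 89 reads, against 40 after control siRNA and 35 in untreated cells. Its log2 ratio to control siRNA was just above the limit of 1, and the ratio without the added RPM was 2.34 (1.59 to 3.49). The log2 ratio was 0.96 with TMM factors, 0.96 with DESeq2 size factors, 0.66 for reads of main sites only and 0.65 after thinning to the CstF-64 depth, all under the limit. With CstF-64 depleted 0 of the 6 genes were called, against 1.81% of loci higher and 6.1% lower. Scaling by total reads put 22.9% of the called loci on the higher side, while TMM scaling put 38.5% and DESeq2 size factors 40.9% there. The median log2 ratio of all loci to control siRNA in that library was −0.19, and the members were at −0.18 (ELAVL1), −0.56 (TIA1), −0.30 (TIAL1), −0.29 (ZFP36L1), 0.10 (ZFP36L2) and −0.11 (KHSRP). TIA1 therefore stood furthest below that median, with a ratio to control siRNA of 0.667 (0.556 to 0.798).

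Reads outside the sites were few in the 4 abundant windows and more frequent in the others. They made up 0.511 to 1.60% of the ELAVL1 reads, 2.51 to 3.95% of the TIAL1 reads, at most 3.21% of the KHSRP reads and 7.99 to 11.3% of the TIA1 reads. They made up 13.4 to 26.6% for ZFP36L1 and 22.5 to 45.7% for ZFP36L2. Upstream of all sites, the ZFP36L2 window held 10 reads in untreated cells, 7 after control siRNA, 5 with CstF-64 depleted and 30 with CF Im 68 depleted. The TIA1 window held 28, 25, 11 and 43 such reads, and the ELAVL1 window 14, 15, 4 and 26. These 3 windows had most upstream reads with CF Im 68 depleted. TIAL1, with 9, 11, 2 and 9, ZFP36L1, with 25, 48, 11 and 39, and KHSRP, with 2, 9, 2 and 1, did not. The most 5′ KHSRP site itself, a weak one at 6414093, held 23, 34, 6 and 59 reads, most with CF Im 68 depleted. Reads of priming within A-rich stretches were not separated from true 3′ ends, and their part in these counts was not tested.

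Other genes of AU-rich element binding and mRNA decay came from a list of 15, of which 10 windows matched RefSeq on chromosome, strand and span and were used. Their hg19 windows came from general knowledge of the gene positions. Of the 10, 5 could be tested for site choice, and with CF Im 68 depleted 2 moved proximally and 0 distally, beside 24.2% and 2.63% of all tested loci. PUM2, a Pumilio protein that binds UGUA-containing elements in 3′ untranslated regions, had a proximal share of 7.84% in untreated cells, 5.90% after control siRNA, 6.29% with CstF-64 depleted and 67.3% with CF Im 68 depleted. XRN1, the main cytoplasmic 5′ to 3′ exonuclease, had 5.18%, 10%, 8.66% and 45.5%. The medians of the 5 were 3.35 points with CF Im 68 depleted and 1.36 points with CstF-64 depleted over control siRNA.

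With CstF-64 depleted 1 of the 5 moved proximally and 0 distally, beside 8.22% and 3.59% of all tested loci. This was HNRNPD, which encodes the AU-rich element binding protein AUF1, with a share of 41.9% in untreated cells, 32.5% after control siRNA, 57.0% with CstF-64 depleted and 35.8% with CF Im 68 depleted (Fisher's exact test against control siRNA, adjusted p = 5.59e-23). Its sites were only 154 nt apart. DDX6, a helicase of mRNA decapping, was the 1 gene of the 10 with a changed total (5.03% of all loci were higher), at 2.28 RPM in untreated cells, 3.57 RPM after control siRNA, 2.45 RPM with CstF-64 depleted and 9.46 RPM with CF Im 68 depleted, all of it outside any site. ZFP36, the tristetraprolin gene and close relative of ZFP36L1 and ZFP36L2, had 24.4, 36.2, 12.8 and 17.3 RPM and was not called. It was lower after either depletion than in both controls, whereas ZFP36L2 had its lowest value in untreated cells. For ZFP36L2 that rank rests on 35 reads and is within counting error. Its ratio of control siRNA to no siRNA was 1.34 (0.832 to 2.18).

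Likeness was measured over the 9 tested genes of both lists as the largest difference, in percentage points, over the changes with CF Im 68 depleted, with CstF-64 depleted and between the controls. ELAVL1 was nearest to XRN1, with a largest difference of 7.04 points. KHSRP was nearest to CELF1 (7.92 points), TIAL1 to KHSRP (9.95 points) and TIA1 to KHSRP (11.3 points). The paralogues TIA1 and TIAL1 were not each other's nearest gene.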

How the data were processed

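The deposited files held raw read counts, 1 value for each genomic position and strand at which 3′ ends fell. The positions refer to hg19 (GRCh37) according to the submitters' processing notes. Nothing on the aligner, multi-mapping or duplicates was given in the sources used here. The running numbers in the deposited name column skip 10.2 to 12.2% of values, and the reason for the gaps was not given. Totals were 15806975 (no siRNA), 13443454 (control), 7343112 (CstF-64) and 12792623 (CF Im 68) counts.

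Positions were clustered by taking the position with most reads and all others within 25 nt, repeatedly. Clusters with a mean of at least 1 RPM on chromosomes 1 to 22 and X gave 33723 sites. Sites in a gene window formed that gene's locus, and the rest were grouped within 10 kb of the most used site. Pairs needed 50 reads in every library, and totals 50 reads over the libraries. Fisher's tests and exact intervals used Python 3.11.15 and scipy 1.17.1, and TMM and size factors used edgeR 4.0.16 and DESeq2 1.42.0. Before use, the code for the pair test was checked on simulated counts, and all values reported are from the deposited counts. The named genes were the 6 members, the targeted genes and a fixed list of 15, and all lists and members were chosen with earlier results of these data known. Alternatives covered clustering, site minimums, site choice, depth, reference library, scaling and pseudocount.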

Additional observations from a re-analysis of the deposited data

Results flagged for a closer look

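Reads on the strand opposite to the genes were not used above. In the TIAL1 window 9 such reads were counted with CF Im 68 depleted, 2 with CstF-64 depleted and 4 in both control libraries together, so that the CF Im 68 library had 5.14 times the rate of the controls (exact 95% interval 1.44 to 22.9). In the ZFP36L1 window 12 were counted with CF Im 68 depleted, 5 with CstF-64 depleted and 11 in both controls, a ratio of 2.49 (1.01 to 6.24). Both were noted because the rate was above that of the control libraries beyond counting error, and 12 such ratios were looked at.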

How the results depend on the processing

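ELAVL1 and TIAL1 moved to the proximal site with CF Im 68 depleted under all 10 alternatives, with changes of 27.0 to 29.3 and 11.4 to 13.9 points. The site minimums, the sites chosen on the control libraries and the single control siRNA reference used the same site pairs and reads. They returned the same 29.2 and 11.7 points and are no separate support. The count of members with a higher total with CF Im 68 depleted, 1 as reported, changed in 5 of 8 alternatives. With no siRNA as the single reference, 1 of 4 tested members (KHSRP, −10.5 points) moved to the distal site with CstF-64 depleted, beside 642 of 4792 tested loci. By that reference 3 of 6 members (ZFP36L1, ZFP36L2 and KHSRP) had higher totals with CF Im 68 depleted, beside 2305 of 17880 loci. For ZFP36L1 and KHSRP the control siRNA library was itself 2.34 and 1.97 times the no siRNA library. With TMM factors, DESeq2 size factors, reads of main sites only, or thinning to the CstF-64 depth, 0 members had a higher total with CF Im 68 depleted, with ZFP36L2 at 0.96, 0.96, 0.66 and 0.65 (log2). The TIA1 pair changed sign to 0.618 points when thinned, with no call. Over all loci, the single no siRNA reference gave 426 distal moves with CF Im 68 depleted, and 912 proximal and 642 distal with CstF-64 depleted; the single control siRNA reference gave 207 distal with CF Im 68 depleted. Against both references the distal count with CF Im 68 depleted was 126, and the proximal and distal counts with CstF-64 depleted were 394 and 172. Totals with CstF-64 depleted depended on scaling: 324 loci were higher and 1091 lower by total reads (22.9% higher), 487 and 779 with TMM factors (38.5%), and 520 and 752 with size factors (40.9%). A pseudocount of 0.1 RPM gave 709 lower with CF Im 68 depleted and 524 higher and 1992 lower with CstF-64 depleted. No siRNA alone gave 2305 higher and 1103 lower with CF Im 68 depleted and 1452 and 2286 with CstF-64 depleted. Control siRNA alone gave 795 and 1892 lower. Log2 ratios with CstF-64 depleted changed sign for ELAVL1 (0.042 with TMM, 0.072 with size factors), KHSRP (0.11, 0.14, and 0.85 against no siRNA), ZFP36L1 (0.81 against no siRNA) and ZFP36L2 (−0.089 thinned), and with CF Im 68 depleted for TIAL1 (−0.12 against no siRNA), none of them called. With a site minimum of 2% the mean end distance change of ELAVL1 with CstF-64 depleted was −28.1 nt, of the other sign. The cause was not tested. No library could be left out in turn. No paired analysis was possible because each group has 1 library. ZFP36L2, with 18 to 54 pair reads per library, was too shallow for a test, and the TIA1 pair had 92 reads with CstF-64 depleted.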
